A study of Rattus norvegicus with 12 samples.

Results

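Whether adipocyte genes in pieces of lung vary together from rat to rat, as they would if a piece held more or less fat, or move singly was examined for 9 genes: Adipoq, Plin1, Retn, Lipe, Cidea, Cidec, Fabp4, Tusc5 and Ucp1. They were chosen by symbol, as genes by which fat cells are known, and are 9 of the 30045 symbols in a table of RNA sequencing counts. The rats were males of the Fischer strain (F344/DuCrl), bought at 3 months of age. Libraries were stranded and made from polyadenylated RNA with 12 PCR cycles. In the CNC group 6 rats breathed crystalline nanocellulose (CNC), rod-like crystals made from plant cellulose, for 14 exposure days, 5 per week and 6 hours each, at a chamber concentration of 20 mg/m3 reaching the whole body. In the air group 6 rats breathed air without CNC in such chambers. A piece of lung was taken 1 day after the last exposure, and the labels do not say from which lobe or how close to the hilum it was cut. Cages held 3 rats and are not given per rat.

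Fat cells store triglyceride in a large droplet coated by proteins such as perilipin, release it through a chain of lipases and secrete hormones including adiponectin and resistin. Brown fat cells hold many small droplets and burn fat through an uncoupling protein in their mitochondria. Lung tissue is not a fat depot, but fat lies beside the airways at the hilum and in the mediastinum, and several genes of lipid storage are also used by macrophages, capillary endothelium, lipofibroblasts and type 2 cells.

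The lung markers were abundant in every library: the levels of Sftpc, Sftpb, Scgb1a1, Ager and Foxj1, in counts-per-million (CPM) scaled by the trimmed mean of M-values, summed to 21740 to 25340 CPM in CNC rats and 20160 to 24500 CPM in air rats. Library totals ran from 9917387 to 14735245 counts in CNC rats and from 8693259 to 16603697 in air rats. In the comparison of CNC with air, 15019 symbols passed the count filter and were tested, and 24.6% of them had an adjusted p under 0.05 in the quasi-likelihood test of edgeR (Benjamini-Hochberg adjusted), 13.2% as higher and 11.4% as lower in CNC. In 11.5% of tested symbols the CPM of the groups did not overlap. The circadian clock list also differed between the groups: 7 of 14 tested clock genes rose and 5 fell, among them the core activators Arntl (1.94-fold lower in CNC) and Npas2 (1.73-fold lower) and the repressor Bhlhe41 and output factor Dbp (1.97-fold and 4.06-fold higher), all with an adjusted p of 0.000194 or less by edgeR. Of the lung markers the surfactant gene Sftpc rose 1.31-fold, the club cell gene Scgb1a1 fell 1.21-fold and the type 1 cell gene Ager fell 1.14-fold (largest adjusted p = 0.0311 by edgeR). Counts from a piece of tissue cannot tell fewer cells of a type from less RNA per cell.

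Of the 9 genes 5 passed the filter (Cidea, Cidec, Lipe, Tusc5 and Fabp4), and Adipoq, Plin1, Retn and Ucp1 did not. Of the tested 5, Cidea rose, Lipe, Tusc5 and Fabp4 fell, and Cidec did not pass the threshold. Thus 1 of 5 was called higher and 3 of 5 lower, against 13.2% and 11.4% of all tested symbols, and the median log2 fold change of the 5 was -0.54, against -0.0026 over all tested symbols. The groups did not overlap for 2 of the 5, Cidea and Lipe, against 11.5% of tested symbols. Of the genes below the filter, Adipoq and Plin1 had most of their counts in a single library, air replicate 4.

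The promoters of 4 of the genes are shown because the first 3 were high together in that library whereas Cidea was lowest there. They are the 250 bases before and 50 bases after the annotated start in RefSeq (build GRCr8, whereas the counts were made on Rnor6), and 6 of the 9 genes had such a window. Capitals mark matches on either strand to AGGTCA, the hexamer bound by PPAR gamma and other nuclear receptors, and to TTGCNNAA, a C/EBP core, both being families of factors that drive fat cell genes. CACGTG, the E-box bound by clock factors, and TATAAA were searched too and had no match in these 4 windows, and none of the motifs overlapped another.
Adipoq (chr11:91240120-91240419, - strand): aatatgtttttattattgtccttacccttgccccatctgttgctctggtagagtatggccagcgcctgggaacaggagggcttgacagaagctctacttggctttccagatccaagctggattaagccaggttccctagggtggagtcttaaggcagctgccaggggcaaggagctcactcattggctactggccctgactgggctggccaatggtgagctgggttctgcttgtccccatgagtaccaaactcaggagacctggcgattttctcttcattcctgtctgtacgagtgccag
Plin1 (chr1:143086099-143086398, - strand): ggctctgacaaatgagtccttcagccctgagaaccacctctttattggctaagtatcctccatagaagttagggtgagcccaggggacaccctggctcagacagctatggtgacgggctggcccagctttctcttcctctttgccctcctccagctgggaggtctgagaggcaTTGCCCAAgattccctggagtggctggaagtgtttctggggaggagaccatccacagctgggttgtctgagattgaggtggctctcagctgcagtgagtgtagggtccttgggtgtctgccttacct
Retn (chr12:6508524-6508823, + strand): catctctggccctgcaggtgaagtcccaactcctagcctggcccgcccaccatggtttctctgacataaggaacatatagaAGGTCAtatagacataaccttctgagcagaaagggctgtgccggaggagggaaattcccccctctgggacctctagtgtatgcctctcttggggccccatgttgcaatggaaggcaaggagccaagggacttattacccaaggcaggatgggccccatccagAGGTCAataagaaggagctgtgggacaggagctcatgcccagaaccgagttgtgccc
Cidea (chr18:63164567-63164866, + strand): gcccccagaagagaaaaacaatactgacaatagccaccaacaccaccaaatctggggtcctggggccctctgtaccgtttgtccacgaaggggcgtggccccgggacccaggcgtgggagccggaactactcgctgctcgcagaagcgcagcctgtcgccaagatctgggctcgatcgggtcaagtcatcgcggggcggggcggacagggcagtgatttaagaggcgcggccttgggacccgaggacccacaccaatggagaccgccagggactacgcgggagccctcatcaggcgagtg
Retn had 2 matches to AGGTCA, a hexamer present in 16.2% of all 33469 windows of the same length, and Plin1 had 1 match to TTGCNNAA, present in 10.6%. Cidec, which was not raised in air replicate 4, also had 1 match to TTGCNNAA, in a window not printed here. The Adipoq and Cidea windows held none of these motifs, which says nothing of sites elsewhere or of binding. CACGTG was present in 6.42% of windows and TATAAA in 14.2%.

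Adipoq encodes adiponectin, a hormone made almost only by fat cells. The CNC libraries held 4, 5, 4, 4, 0 and 1 counts of Adipoq for replicates 1 to 6, and the air libraries held 6, 8, 0, 51, 4 and 1. Air replicate 4 stood alone, with 58.0% of all 88 counts, and the groups overlapped elsewhere. Its level there was 3.97 CPM before scaling (95% exact Poisson interval 2.95 to 5.21, counting error only, as for all such intervals here), against 0.309 (0.186 to 0.483) in the other 5 air libraries together, and the CNC libraries together had 0.234 (0.139 to 0.370). The group means were 0.23 ± 0.149 CPM in CNC and 0.883 ± 1.49 CPM in air (SD, n = 6 each), and the difference of -0.653 CPM did not pass an exact permutation test of the rats' group labels (2-sided p = 0.325). Without air replicate 4 the difference was -0.052 CPM (exact permutation p = 0.632).

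Plin1 encodes perilipin 1, which coats the droplet and holds lipases off until a hormone signal comes. It had 2 counts in CNC replicate 1, 1 in CNC replicate 6 and 0 in the other 4 CNC libraries, against 21 in air replicate 4, 1 each in air replicates 3 and 5 and 0 in the other 3 air libraries. Thus 80.8% of its 26 counts lay in the library that was also highest for Adipoq. The unscaled level in air replicate 4 was 1.63 CPM (1.01 to 2.50), against 0.0391 (0.0081 to 0.114) over the CNC libraries and 0.0326 (0.0039 to 0.118) over the other 5 air libraries. The mean was 0.253 CPM lower in CNC than in air (exact permutation p = 0.652), and without air replicate 4 it was 0.0082 CPM higher (exact permutation p = 0.849). Where 1 library holds most counts, as for Plin1 and Adipoq, nearly every split of the rats gives a sizeable difference. The permutation test with that library included could therefore hardly give a small p for either gene.

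Retn encodes resistin, a hormone of fat cells in rodents. The CNC libraries held 2, 0, 0, 3, 0 and 1 counts and the air libraries 2, 3, 1, 9, 0 and 1, in replicate order. Air replicate 4 was again the highest, with 40.9% of the 22 counts and 0.7 CPM before scaling (0.320 to 1.33), against 0.0781 (0.0287 to 0.170) over the CNC libraries and 0.114 (0.0458 to 0.235) over the other 5 air libraries. The difference between the groups did not pass the exact permutation test (p = 0.314). Tested without the count filter, Adipoq, Plin1 and Retn had adjusted p of 0.144, 0.184 and 0.337 by edgeR.

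**Figure D1:**
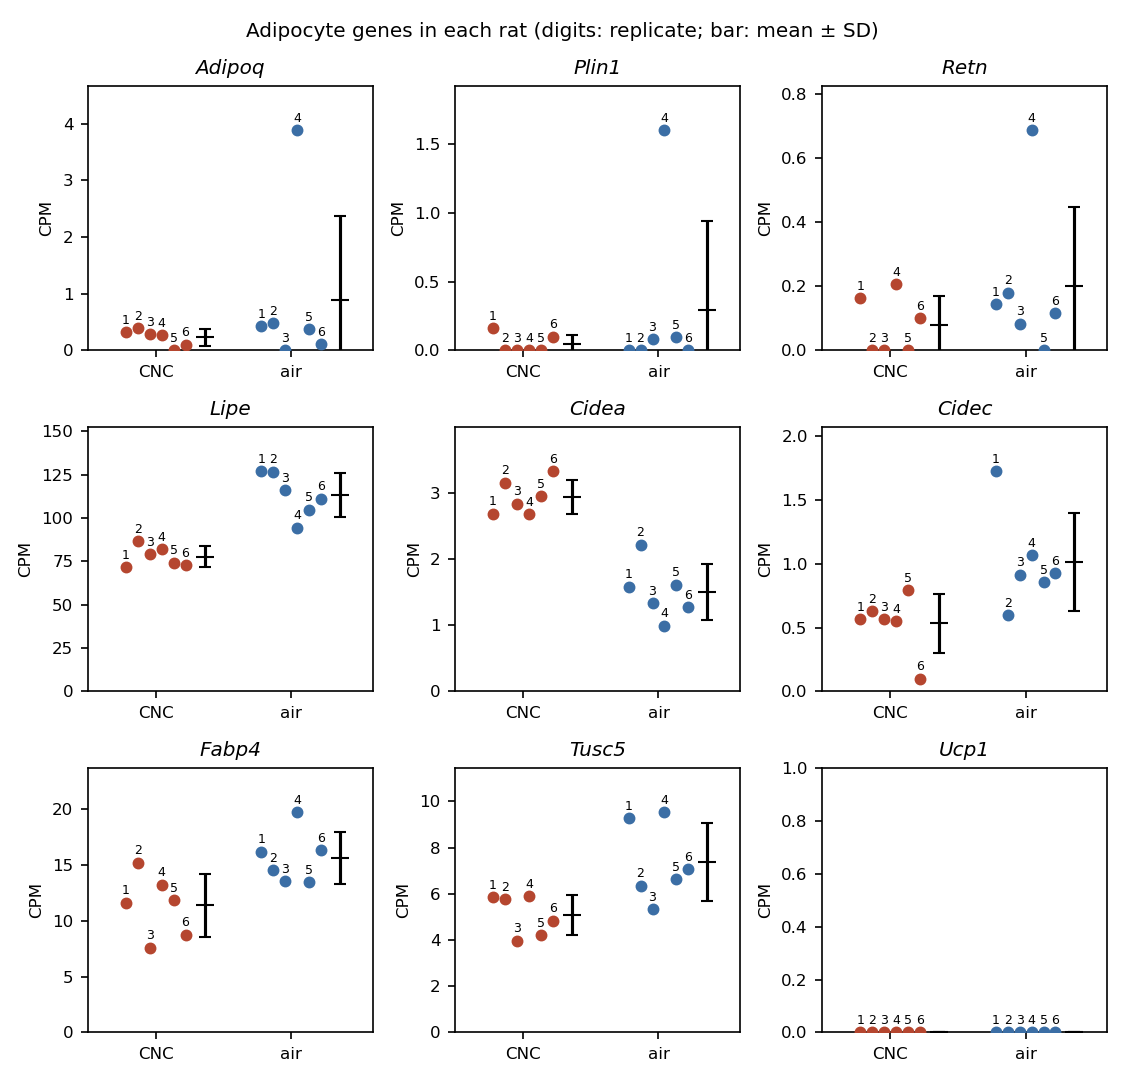
CPM of each of the 9 genes in each rat (y axes, linear from 0), CNC left of air, with the replicate number at each point and the mean ± SD as a bar, drawn from 0 up where the SD reaches below 0. Air replicate 4 stands apart for Adipoq (3.89 CPM), Plin1 (1.6 CPM) and Retn (0.686 CPM), while the groups do not overlap for Cidea and Lipe.

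Lipe encodes hormone-sensitive lipase, which cleaves diglycerides and cholesterol esters in fat cells and is also used by macrophages and steroid-making cells. It was the gene of the 9 with the most reads. CNC replicates 1 to 6 had 71.5, 86.8, 79.2, 81.9, 74.2 and 72.9 CPM, and air replicates 1 to 6 had 127, 126.7, 116, 94.4, 104.8 and 111.1 CPM. Every CNC rat lay below every air rat. Lipe fell 1.46-fold, to 77.8 ± 5.94 CPM in CNC, against 113 ± 12.7 CPM in air (SD, n = 6 each), with a log2 fold change of -0.54 ± 0.07 SE (adjusted p = 4.74e-05 by edgeR). The air rat with the most Adipoq, replicate 4, had the lowest Lipe of its group, whereas the air rats next highest for Adipoq, replicates 2 and 1, had the highest Lipe, and CNC replicate 2 was the highest of its group for both. The libraries with 0 Adipoq counts, CNC replicate 5 and air replicate 3, had 74.2 and 116 CPM of Lipe. Outside air replicate 4 these ranks rest on 0 to 8 Adipoq counts per library, so counting error alone could reorder them. With so few counts outside air replicate 4, Adipoq as a covariate could hardly adjust for fat in the other libraries. This holds here and for Fabp4 and Tusc5 below. With Adipoq as a covariate the log2 fold change of Lipe was -0.57 (adjusted p = 6.46e-05 by edgeR), and without air replicate 4 it was -0.59 (adjusted p = 8.01e-06 by edgeR). With the first principal component of the clock list as a covariate it was -0.29 (adjusted p = 0.174 by edgeR). That component ran from -4.38 to -1.20 in CNC rats and from 1.98 to 5.13 in air rats other than replicate 4 (-1.24), so it and the exposure can hardly be told apart, here and in every value given with it.

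Cidea and Cidec encode related proteins that sit where lipid droplets touch and let lipid pass into the larger droplet, Cidea chiefly in brown fat and Cidec in white fat. Cidea rose, and the fold change of Cidec had the opposite sign and missed the threshold. Cidea had 33, 40, 40, 39, 37 and 33 counts in CNC replicates 1 to 6, which is 2.68, 3.15, 2.84, 2.68, 2.94 and 3.33 CPM. In air replicates 1 to 6 it had 22, 37, 16, 13, 17 and 11 counts, or 1.58, 2.22, 1.33, 0.991, 1.61 and 1.27 CPM. Every CNC rat lay above every air rat, and air replicate 4 was the lowest of all 12. Cidea rose 1.91-fold, to 2.94 ± 0.262 CPM in CNC, against 1.5 ± 0.417 CPM in air (SD, n = 6 each), with a log2 fold change of 0.93 ± 0.17 SE (adjusted p = 0.000936 by edgeR). The call held in all 25 alternative settings run, including the clock covariate, where the log2 fold change was 1.49 (adjusted p = 0.0207 by edgeR). The spread of Cidea within the CNC group, 8.91% of the mean, was below the 16.4% that counting error alone gives at these counts.

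Cidec had 7, 8, 8, 8, 10 and 1 counts in CNC replicates 1 to 6, or 0.101 to 0.795 CPM with a median of 0.568. In the air libraries it had 24, 10, 11, 14, 9 and 8 counts, or 0.599 to 1.73 CPM with a median of 0.921. The groups overlapped, since CNC replicates 2 and 5 lay above air replicate 2. The log2 fold change was -0.88 ± 0.32 SE (adjusted p = 0.0606 by edgeR), and the threshold was passed without air replicate 2 (adjusted p = 0.0375 by edgeR) and with a heart muscle covariate (adjusted p = 0.0458 by edgeR). Cidec was not raised in the library rich in Adipoq: air replicate 4 had 1.07 CPM, within the range of the other air rats.

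Fabp4 encodes a cytosolic fatty acid carrier that is abundant in fat cells and also made by macrophages and capillary endothelium. It ran from 7.58 to 15.2 CPM with a median of 11.7 in CNC rats, and from 13.5 to 19.8 CPM with a median of 15.4 in air rats. CNC replicate 2 lay inside the air range, and air replicate 4 was the highest of all 12. Fabp4 fell 1.37-fold, to 11.4 ± 2.82 CPM in CNC, against 15.6 ± 2.36 CPM in air (SD, n = 6 each), with a log2 fold change of -0.46 ± 0.15 SE (adjusted p = 0.0329 by edgeR). The call was lost in 11 of 25 alternative settings, among them without air replicate 4 (log2 fold change -0.37, adjusted p = 0.0745 by edgeR), with Adipoq as a covariate (-0.37, adjusted p = 0.0738 by edgeR) and with the clock covariate (-0.73, adjusted p = 0.121 by edgeR). It was also lost without air replicate 1 or 6 or CNC replicate 1, 3, 5 or 6 in turn (adjusted p from 0.0519 to 0.071 by edgeR), without air replicates 4 and 5 together (0.0719) and without CNC replicates 3 and 6 together (0.109).

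Tusc5, whose current symbol is Trarg1, encodes a membrane protein of fat cells that takes part in the traffic of the insulin-responsive glucose transporter. It ran from 3.97 to 5.9 CPM with a median of 5.3 in CNC rats, and from 5.33 to 9.53 CPM with a median of 6.86 in air rats. The groups overlapped, and air replicates 4 and 1 were the highest. Tusc5 fell 1.45-fold, to 5.09 ± 0.867 CPM in CNC, against 7.37 ± 1.68 CPM in air (SD, n = 6 each), with a log2 fold change of -0.54 ± 0.16 SE (adjusted p = 0.0195 by edgeR). The call was passed without air replicate 4 (log2 fold change -0.45, adjusted p = 0.0456 by edgeR) and with Adipoq as a covariate (-0.41, adjusted p = 0.0392 by edgeR), and was lost without air replicate 1 (-0.45, adjusted p = 0.0533 by edgeR), without air replicates 4 and 5 together (-0.47, 0.0567) and without CNC replicates 3 and 6 together (-0.45, 0.0789). With the clock covariate the log2 fold change was -0.95 (adjusted p = 0.0475 by edgeR).

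Ucp1, the uncoupling protein that defines brown fat cells, had 0 counts in all 12 libraries. A count of 0 allows up to 3 counts per library, as a 95% Poisson bound on the upper side only. This is 0.181 to 0.345 CPM before scaling from the deepest to the shallowest library, and 0.0199 CPM over all 151089724 counts. The exact Poisson intervals used above reach higher, for instance 0.287 CPM against 0.233 CPM in air replicate 4. At this depth Ucp1 was not detected in either group, so Cidea was counted in all 12 rats where Ucp1 was counted in none. Marco, of the macrophage list below, also had 0 counts in all libraries, and whether such rows reflect the annotation was not tested.

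**Figure D2:**
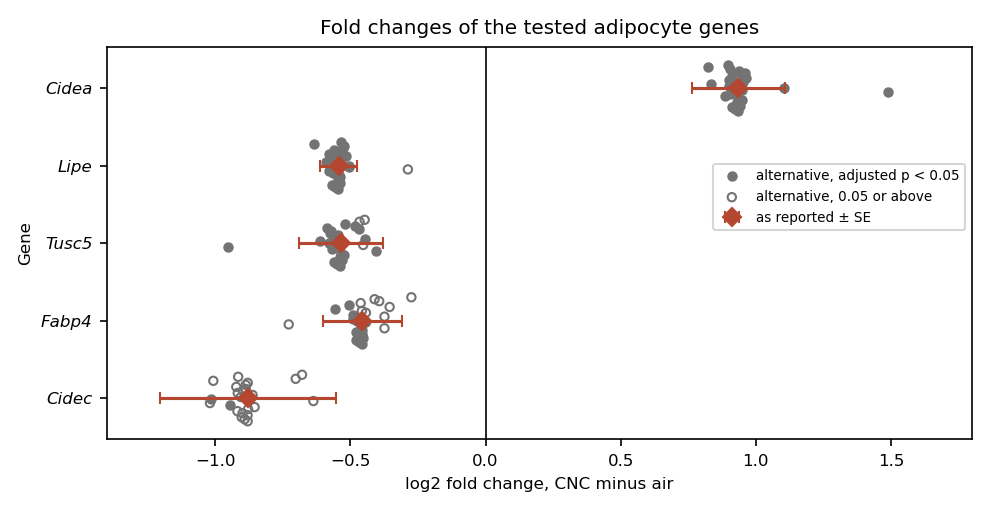
Log2 fold change, CNC minus air (x axis), of the 5 tested genes: diamonds with SE bars are the reported values, grey points the alternative settings, filled where the adjusted p was under 0.05. Cidea lies right of 0 and the other 4 left of 0 under every setting run, while the points of Fabp4 and Cidec are filled in 14 of 25 and 2 of 24 settings.

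How the 5 tested genes varied together was measured after removing each group's mean from the log2 CPM, so that a difference between the groups does not enter. Of 10 pairs 6 had a positive Pearson r, and r ran from -0.37 to 0.71 over 12 rats. None of the 10 passed Benjamini-Hochberg adjustment over the pairs (permutation test within groups, 2-sided, 100000 resamples), and 1 had an unadjusted p under 0.05 by r and 1 by Spearman's rho. That pair was Tusc5 and Fabp4, with r = 0.71 (permutation p = 0.00767, adjusted p = 0.0767) and rho = 0.60 (permutation p = 0.0404, adjusted p = 0.368). Within groups r was 0.72 over the 6 CNC rats (exact permutation p = 0.118, adjusted p = 0.938) and 0.84 over the 6 air rats (exact permutation p = 0.0319, adjusted p = 0.319), and without the 2 rats farthest from the median of Tusc5, air replicates 1 and 4, it was 0.69. The pair passed adjustment in 4 of 16 alternatives, namely on CPM without logs (permutation adjusted p = 0.0467) and without air replicate 1 (0.0468) or CNC replicate 5 (0.01) or CNC replicate 6 (0.03).

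The lipase and the droplet protein that separated the groups, Lipe and Cidea, had r = 0.61 (permutation p = 0.0803, adjusted p = 0.402) and rho = 0.32 (permutation p = 0.372, adjusted p = 0.667). This rested on air replicates 2 and 4, without which r was 0.064. Within groups r was 0.050 over the CNC rats (exact permutation p = 0.935, adjusted p = 0.989) and 0.76 over the air rats (exact permutation p = 0.075, adjusted p = 0.375). Lipe had r = 0.026 with Fabp4 (permutation p = 0.93, adjusted p = 0.93) and rho = 0.028 (permutation p = 0.937, adjusted p = 0.937). With Tusc5 it had r = -0.10 (permutation p = 0.779, adjusted p = 0.865) and rho = -0.091 (permutation p = 0.804, adjusted p = 0.893). Without the 2 rats farthest from the median of Lipe, air replicates 1 and 4, these were 0.36 and 0.072.

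**Figure D3:**
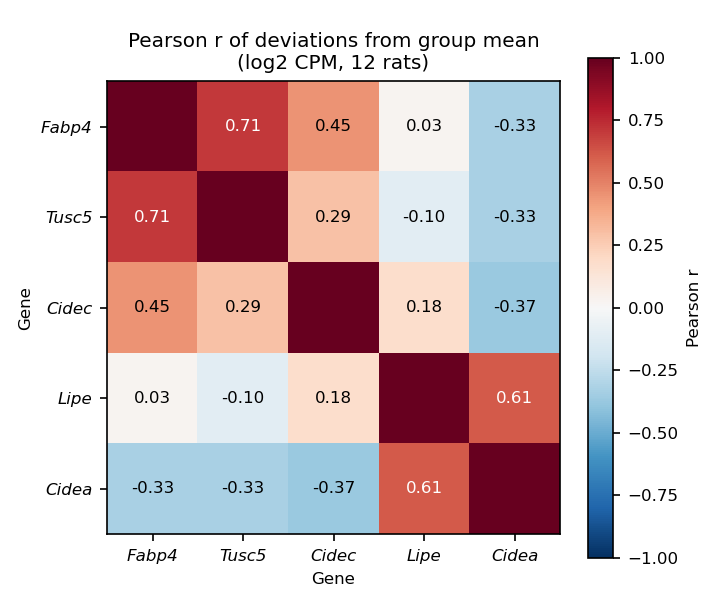
Pearson r between the 5 tested genes (both axes) over 12 rats, on log2 CPM with each group's mean removed. The highest value is that of Tusc5 and Fabp4 (0.71), and Cidea is negative with Fabp4, Tusc5 and Cidec and positive with Lipe (0.61).

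With Adipoq the deviations of Plin1 had r = 0.71, Tusc5 0.69, Retn 0.65, Fabp4 0.42, Cidec 0.11, Lipe -0.31 and Cidea -0.32, given as a description because Adipoq has few counts and 1 library dominates. Without air replicate 4 these were -0.12 for Plin1, 0.59 for Tusc5, 0.17 for Retn, 0.17 for Fabp4, 0.092 for Cidec, 0.42 for Lipe and 0.43 for Cidea. The association of Plin1 and Retn with Adipoq thus rested on air replicate 4, whereas that of Tusc5 was less changed by leaving it out.

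**Figure D4:**
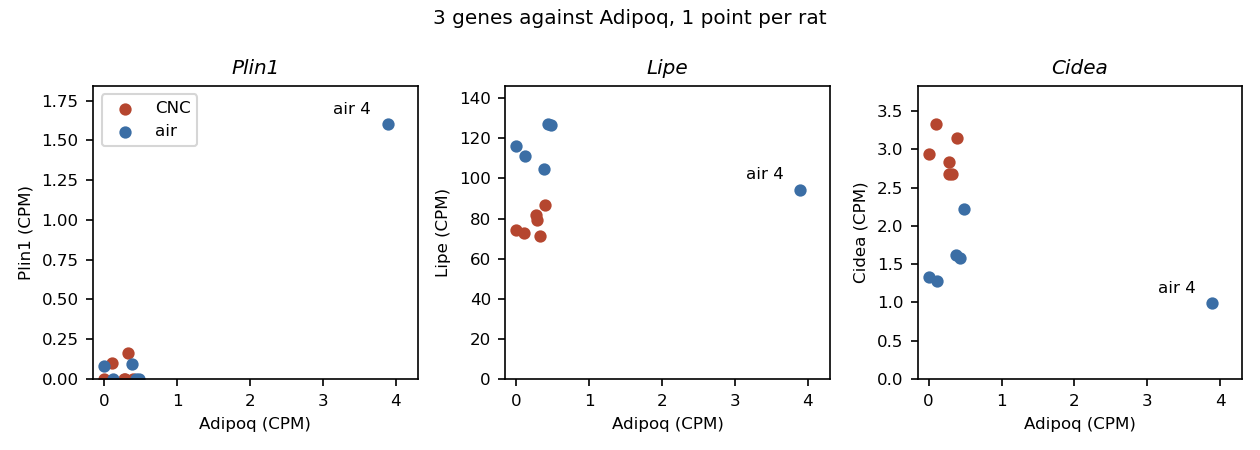
CPM of Plin1, Lipe and Cidea (y axes) against CPM of Adipoq (x axis), 1 point per rat, CNC and air in different colours. Air replicate 4 lies far to the right: Plin1 is high there (1.6 CPM), while Lipe (94.4 CPM) and Cidea (0.991 CPM) are the lowest of the air rats.

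Some other genes listed for fat cells were also highest in the library rich in Adipoq. Of 26 further adipocyte genes 10 were highest in air replicate 4, 5 of them below the count filter. Of the 19 that passed the filter 5 (26.3%) were highest there, against 9.67% of all tested symbols. Lep, the satiety hormone leptin, had 18 of its 36 counts there, Thrsp, a regulator of fat synthesis, 16 of 22, Pck1, a gluconeogenic enzyme, 14 of 58, and Aqp7, the glycerol channel, 4 of 6. The others were Cfd, Plin4, Slc2a4, Pnpla2, Sncg and Adrb3, the last with 1 count in all. Cfd, Plin4, Slc2a4 and Sncg were next highest in air replicate 5, the library also next highest for the heart muscle genes described below. Pnpla2 was next highest in CNC replicate 5. Whether fat or heart muscle gave these levels in air replicate 4 was not tested. Between the groups, 19 of the 26 were tested, of which 7 rose and 2 fell, against 13.2% and 11.4% of all tested symbols. The median log2 fold change of the 19 was 0.027. Without air replicate 4, a setting added after seeing the data, 6 rose and 2 fell. Those that rose most firmly were Dgat2, which makes triglyceride (1.78-fold, adjusted p = 6.81e-07 by edgeR), Gpam, which starts glycerolipid synthesis (1.17-fold, adjusted p = 0.00023), the fatty acid receptor Cd36 (1.23-fold, adjusted p = 0.00075) and the transcription factor Cebpa (1.21-fold, adjusted p = 0.00819). Dgat2 had 64.7 ± 6.77 CPM in CNC, against 36.3 ± 1.98 CPM in air (SD, n = 6 each). Pparg, the master factor of fat cell formation that alveolar macrophages also use, rose as well (17.3 CPM in CNC, against 13.2 CPM in air, adjusted p = 0.0228 by edgeR). The 2 that fell were Sncg, a synuclein of neurons and fat cells (log2 fold change -0.80, adjusted p = 0.0209 by edgeR), and G0s2, an inhibitor of adipose triglyceride lipase (-0.22, adjusted p = 0.0424 by edgeR).

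**Figure D5:**
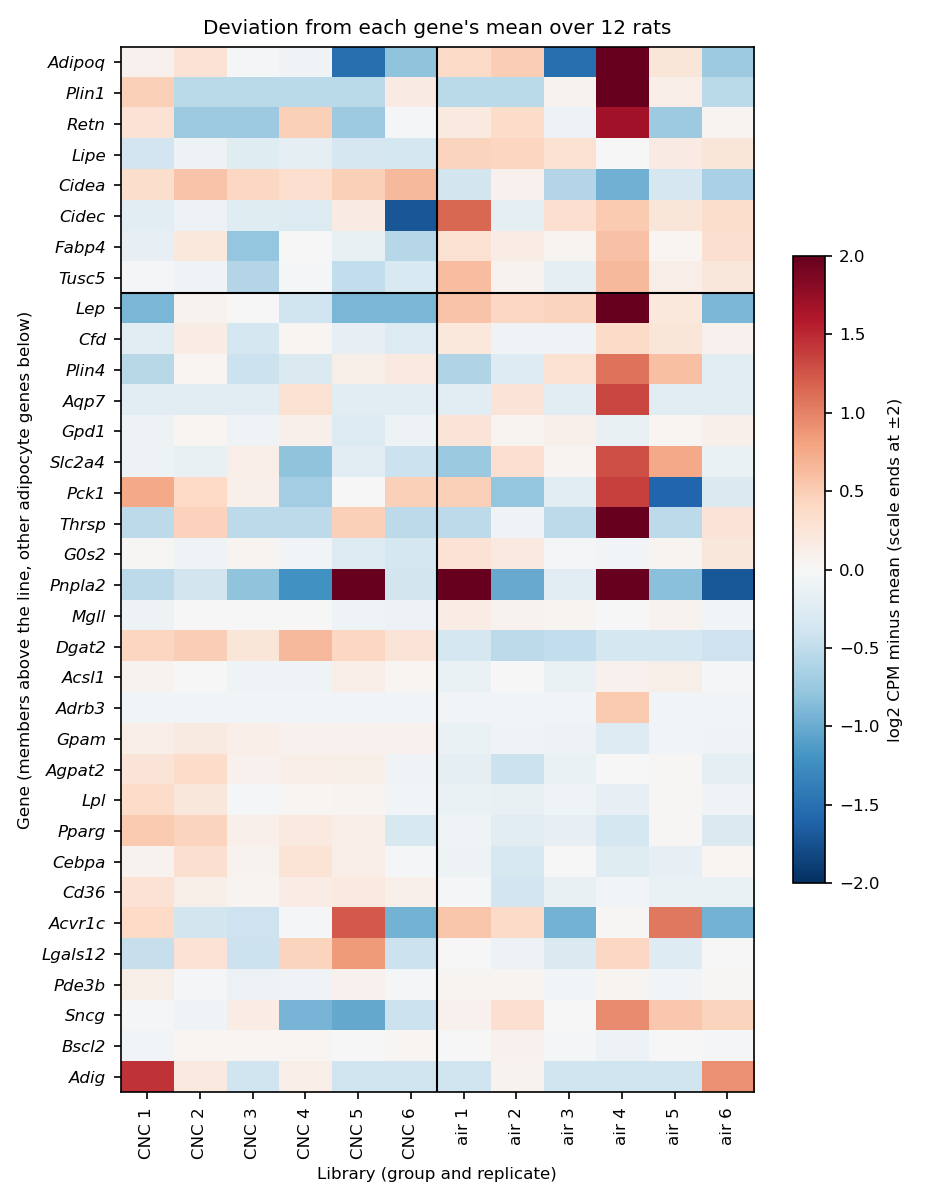
Deviation of log2 CPM from each gene's mean over the 12 rats (colour, ending at ±2) for 8 of the 9 genes (above the line, without Ucp1) and 26 other adipocyte genes (below), with CNC libraries left of air libraries. The column of air replicate 4 is dark red for Adipoq, Plin1, Lep and Thrsp, while Cidea and Dgat2 are higher across the CNC columns. Pnpla2 is dark red there too, but equally so in air replicate 1 and CNC replicate 5.

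Of 15 brown fat genes with a row, 10 were tested, and 1 rose and 1 fell, against 13.2% and 11.4% of all tested symbols. Both counts are near those shares. Gk, glycerol kinase, rose 1.99-fold (adjusted p = 1.04e-06 by edgeR), and Kcnk3, a potassium channel, fell 1.29-fold (adjusted p = 0.0165 by edgeR). Elovl3, Zic1 and Ucp1 had 0 counts in all libraries, and Otop1 had 1 count in each group. Of 15 general lipid droplet genes 12 were tested, and 4 rose (Dgat2, Hilpda, Abhd5 and Hsd17b11) and 0 fell, against the same shares of all tested symbols. The lists overlap: Dgat2, Plin4, Pnpla2, Mgll and Bscl2 are also among the further adipocyte genes above, so Dgat2 counts as a rise in both. Pparg likewise stands in the lipofibroblast list below too. Plin2, the droplet coat protein of most non-fat cells, had 207 CPM in CNC and 188 CPM in air (adjusted p = 0.0592 by edgeR). Cideb, the remaining member of the CIDE family, had 4 counts in CNC and 3 in air libraries.

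Heart muscle genes, which mark the muscle of pulmonary veins and the hilum, also peaked in air replicate 4. Of 16 genes 15 were highest there, and so were all 13 of the tested ones, against 9.67% of all tested symbols. The sum of the 16 was 471.6 CPM in that library, against 15.4 to 348 CPM in the other air rats, while CNC rats had 15.3 to 136 CPM. Air replicate 5 had the next highest sum, 348 CPM, and 0.38 CPM of Adipoq. None of the 13 heart muscle genes tested passed the threshold by edgeR, against 24.6% of all tested symbols. Their levels were lower in CNC all the same, with a median log2 fold change of -1.17, and of -0.61 without air replicate 4. Of the 13, 4 had an unadjusted p under 0.05 by edgeR, and DESeq2 and limma-voom called 0 too. Myh6, a cardiac myosin, had 31.9 ± 21.7 CPM in CNC and 70.0 ± 68.9 CPM in air, and Actc1, cardiac actin, had 13.6 ± 6.53 CPM in CNC and 33.2 ± 27.2 CPM in air (SD, n = 6 each). With a heart muscle covariate the 4 calls among the 5 tested adipocyte genes were kept and Cidec was added.

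Among markers of other cell types, those of endothelium and macrophages, which make some of the adipocyte genes, moved with the groups as well. Over all tested symbols 13.2% rose and 11.4% fell, which is the share to set beside each list here. In the endothelial list 11 of 12 genes fell and 0 rose, and their sum was 4056 to 4486 CPM in CNC rats, against 5019 to 5589 CPM in air rats. The smallest adjusted p belonged to Calcrl, Cdh5, Ednrb and Aplnr, which fell 1.22-fold to 1.35-fold (largest adjusted p = 4.74e-05 by edgeR). In the macrophage list 6 of 8 tested genes rose and 0 fell, with sums of 1691 to 2205 CPM in CNC rats and 797 to 983 CPM in air rats, Marco having 0 counts in all libraries. Chi3l1, Fabp5, Lgals3 and Cd68 rose 2.03-fold to 3.59-fold (largest adjusted p = 6.07e-06 by edgeR). In the lipofibroblast list 2 of 8 rose and 3 fell (sums of 1074 to 1263 CPM in CNC and 1051 to 1163 CPM in air), Pparg among those that rose and Pdgfra, Tcf21 and Fgf10 being those that fell (1.17-fold to 1.38-fold, largest adjusted p = 0.0206 by edgeR), and without air replicate 4 the count that rose was 1. Mesothelial genes (1 of 6 fell, Krt19, sums of 266 to 446 CPM in CNC and 293 to 428 CPM in air) and lymphoid genes (0 of 7 called by edgeR, DESeq2 or limma-voom and 0 at an unadjusted p under 0.05, sums of 55.4 to 73.1 CPM in CNC and 49.8 to 93.4 CPM in air) overlapped between the groups in their sums. Cd79b, a B cell receptor subunit, had 10.7 CPM in CNC and 11.6 CPM in air (adjusted p = 0.68 by edgeR). The part of these cell types in the falls of Lipe and Fabp4 and the rise of Cidea was not tested.

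The tested genes with deviations most like those of 4 of the adipocyte genes were ranked over 12885 (for Adipoq 12886) symbols with a mean of at least 1 CPM, as a description over the 12 rats. The highest r of so many symbols over so few rats can be large by chance, and no link to the genes named was tested. Nearest to Adipoq were Nlrc3 (r = 0.93, and 0.87 without air replicate 4), Mylk3, a kinase of heart muscle (0.90 and 0.74), Csk (0.90 and 0.73), Tpm2, a tropomyosin (0.89 and 0.69), and Smarcb1 (0.88 and 0.74). Nearest to Cidea were Ulk2 (r = 0.94), Peli2 (0.89), Bscl2, which encodes seipin, a protein of droplet formation (0.88), Azin1 (0.87) and Zfp319 (0.87). Nearest to Lipe were Pkd1 (0.89), Clstn2 (0.88), Zdhhc7 (0.88), Crebl2 (0.86) and Egfl8 (0.86). Nearest to Fabp4 were Kctd13 (0.95), Rgp1, Galnt5, Cd300le and Rell1 (0.87 each).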

How the data were processed

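RNA was measured in lung pieces of 12 rats, 6 per group. The authors deposited a table of raw counts per gene symbol. Tools named in the submitters' processing notes, with no roles, are HTSeq 0.11.2, HISAT2 2.1.0, SAMtools 1.8, Trimmomatic 0.35, bcl2fastq 2.19 and Cufflinks. Rnor6 stands in the table's name. The sources used here give neither the annotation nor whether counting used strand, so overlapping and antisense genes are uncertain. Library totals are in the report, and PCR copies are not independent molecules.

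A model was fitted to the counts of all genes with edgeR 4.0.16 in R 4.3.3 (filterByExpr with a minimum count of 10, TMM, glmQLFit and glmQLFTest), with a threshold of 0.05 after Benjamini-Hochberg adjustment. The SE is the log2 fold change divided by the square root of F. Log2 CPM use a prior count of 2. Genes below the filter were tested by exact permutation of CPM. The procedure was tested on simulated data. Alternatives were other scalings, filters and tests (DESeq2 1.42.0, limma 3.58.1), covariates and omitted rats. Promoters came from RefSeq (GRCr8), and figures from Python 3.11.15 and matplotlib 3.10.9.

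The 9 genes, the lists and the alternatives were chosen with earlier results of these data known. The text names all 9, up to 4 called genes of smallest adjusted p in a list (elsewhere the 2 most abundant, of which 1 lymphoid gene is not reported here) and the 5 nearest genes, and others named after their values were seen are Sncg, G0s2, Plin2, Cideb, Otop1 and those highest in air replicate 4. Libraries were matched to rats by the number in the column name and to groups by the treatment label. Replicate numbers only name a rat. The p-values of group comparisons set a difference against the variation between rats, and those of correlations set r against reshuffles within groups. Rats were taken as independent, although they were caged by 3 and the cages are not known.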

Additional observations from a re-analysis of the deposited data

Results flagged for a closer look

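In air replicate 4, Adipoq (3.89 CPM), Plin1 (1.6 CPM) and Retn (0.686 CPM) lay far above the other 5 air rats, the gap to the next rat being 0.877, 0.941 and 0.738 of the group's range, against Dixon's 95% critical value of 0.625 for 6 samples. All 3 rest on low counts (51, 21 and 9). In CNC replicate 6, Cidec had 1 count (0.101 CPM), a gap of 0.645 of the range below the other CNC rats. Chance alone marks about 1 in 20 groups where values follow a normal distribution, and 16 groups were examined (8 genes with counts in each of 2 groups). Low counts with many zeros need not follow it, so the rate for these groups is not known.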

How the results depend on the processing

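Cidea stayed higher and Lipe, Tusc5, Fabp4 and Cidec lower in CNC under every setting run. Cidea kept its call in 25 of 25 settings, Lipe in 24, Tusc5 in 22 and Fabp4 in 14 of 25. The count of 4 changed genes among the 5 tested (1 higher, 3 lower) became 2 (1 lower) with the clock covariate, without air replicates 4 and 5 together and without CNC replicates 3 and 6 together. Leaving out single rats gave 2 to 5, with 1 to 4 lower. With the clock covariate 882 symbols changed, 555 higher and 327 lower, and without single rats 3091 to 3722 changed (1712 to 1998 higher, 1379 to 1726 lower), against 3691 (1982 and 1709). The balance turned to 1803 higher and 1967 lower with upper-quartile scaling and to 1684 and 2149 with library size alone. The count of pairs passing adjustment, 0, became 1 on CPM without logs and 0 to 2 without single rats. Plin1 turned from lower to higher in CNC without air replicates 4 and 5 (0.0229 CPM), and ran from -0.311 to 0.0082 CPM without single rats. The r of Lipe and Fabp4 was -0.105 on CPM without logs and -0.235 to 0.394 without single rats. Without single rats the r of Cidec and Lipe ran from -0.022 to 0.384 and that of Lipe and Tusc5 from -0.352 to 0.295. The causes were not tested. No scaling moved the median of all genes by more than 0.023 on the log2 scale. No paired analysis was possible because replicate numbers do not link rats across groups. Depth limits Adipoq, Plin1, Retn and Cidec, with at most 118 counts each over 12 libraries.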

Other observations

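Pnpla2, which encodes adipose triglyceride lipase, the enzyme that acts before hormone-sensitive lipase on stored fat, had counts at separate levels that followed neither group. It was singled out after its values were seen. CNC replicate 5 had 91 counts, and the other CNC rats had 8 to 14. Air replicates 1 and 4 had 99 and 137 counts, and the other air rats had 3 to 15. The mean was 1.96 CPM in CNC and 3.43 CPM in air (adjusted p = 0.476 by edgeR). Of Adipoq, CNC replicate 5 had 0 counts, air replicate 1 had 6 and air replicate 4 had 51. The sources used here do not say which transcripts of Pnpla2 were counted, so its counts may not stand for the whole gene, here and where it is named above.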
